A study of Homo sapiens with 15 samples.

Results

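The cholinergic receptor genes examined were 7 listed genes, CHRNA3, CHRNA5, CHRNA7, CHRNB2, CHRNB4, CHRM2 and CHRM3, of 18244 genes named on the array. Each was read through every probe set that named it alone, and 6 of the 7 had at least 1 such probe set, 14 in all. CHRNA7 had 0, because all 4 probe sets that named it also named CHRFAM7A, a partial copy of the gene, so it has no value of its own here. Expression had been profiled by the study in 5 established human neuroblastoma cell lines, with 3 arrays each for NGP, BE(2)-C, KELLY, SK-N-AS and SH-SY5Y, all grown in DMEM with 10% fetal bovine serum and with no treatment named. NGP, BE(2)-C and KELLY carry amplified MYCN and SK-N-AS and SH-SY5Y do not, by general knowledge of these lines and not by a label. BE(2)-C is a clone of the line SK-N-BE(2) and SH-SY5Y a subclone of SK-N-SH, so each stands for 1 line and not for a tumour type. No label says whether the numbered replicates of a line were separate cultures. The p-values therefore rest on the spread among 3 arrays of a line, and this spread may be technical. MYCN had a mean intensity of 9363 ± 163 (SD, n = 3) or more in each amplified line, against 152 ± 30.2 in SH-SY5Y and a value at background in SK-N-AS (78.8 ± 6.30).

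Acetylcholine acts on receptors of different build. Nicotinic receptors are ion channels made of a ring of subunits: the alpha-3 subunit (CHRNA3) with beta-4 (CHRNB4) or beta-2 (CHRNB2) forms the main channel of autonomic ganglia, alpha-5 (CHRNA5) joins such channels as an accessory subunit, and alpha-7 (CHRNA7) can form a channel by itself. Muscarinic receptors are G protein-coupled: M3 (CHRM3) acts through Gq and phospholipase C, and M2 (CHRM2) through Gi and Go. Neuroblastoma is a childhood tumour of the sympathetic lineage, whose normal ganglion cells receive acetylcholine through the alpha-3 channel.

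CHRNA5, CHRNA3 and CHRNB4 lie next to each other, in that order, on chromosome 15 in RefSeq (GRCh38.p14). RefSeq promoter windows, from 250 bases before to 50 after a transcription start, were matched for 6 of the 7 genes, all but CHRNA5. The windows of CHRNA3 and CHRNB4 are shown because these neighbours shared an order of levels over the lines on the deposited scale, and those of CHRNB2 and CHRM3 because these genes, from other chromosomal places, shared a value at background in SK-N-AS by their brightest probe sets. CHRNB4 was at background in SK-N-AS too. All are written 5′ to 3′ on the strand of the gene, and capitals mark GC boxes (GGGCGG or CCGCCC, either strand, overlapping matches counted). The windows lie at chr15:78620947-78621246 (minus strand) for CHRNA3, chr15:78641161-78641460 (minus strand) for CHRNB4, chr1:154567528-154567827 (plus strand) for CHRNB2 and chr1:239386318-239386617 (plus strand) for CHRM3.
CHRNA3: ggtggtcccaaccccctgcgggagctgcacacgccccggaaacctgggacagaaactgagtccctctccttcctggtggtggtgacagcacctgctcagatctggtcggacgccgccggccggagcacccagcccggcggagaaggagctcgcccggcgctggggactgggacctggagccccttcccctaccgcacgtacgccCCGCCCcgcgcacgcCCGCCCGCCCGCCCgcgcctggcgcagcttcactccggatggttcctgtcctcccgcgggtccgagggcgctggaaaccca
CHRNB4: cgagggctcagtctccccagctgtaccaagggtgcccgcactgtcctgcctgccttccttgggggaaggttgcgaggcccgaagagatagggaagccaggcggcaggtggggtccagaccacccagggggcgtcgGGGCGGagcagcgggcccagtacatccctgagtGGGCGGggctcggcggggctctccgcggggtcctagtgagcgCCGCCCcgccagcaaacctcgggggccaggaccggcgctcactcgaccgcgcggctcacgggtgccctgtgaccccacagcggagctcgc
CHRNB2: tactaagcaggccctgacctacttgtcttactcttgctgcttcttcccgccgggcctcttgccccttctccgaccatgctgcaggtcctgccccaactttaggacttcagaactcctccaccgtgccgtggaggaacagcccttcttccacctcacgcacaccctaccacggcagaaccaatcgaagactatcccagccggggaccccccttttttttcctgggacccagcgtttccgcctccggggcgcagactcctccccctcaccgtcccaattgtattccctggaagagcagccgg
CHRM3: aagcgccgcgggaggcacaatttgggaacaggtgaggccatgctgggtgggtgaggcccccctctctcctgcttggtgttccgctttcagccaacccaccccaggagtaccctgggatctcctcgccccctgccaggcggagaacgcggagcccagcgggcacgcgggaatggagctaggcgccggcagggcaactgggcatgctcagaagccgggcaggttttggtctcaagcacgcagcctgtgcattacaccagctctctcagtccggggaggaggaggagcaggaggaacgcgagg
The window of CHRNA3 held 4 GC boxes, 3 of them overlapping in 1 run, and that of CHRNB4 held 3, while those of CHRNB2 and CHRM3 held 0. Of the windows not shown, both of CHRNA7 held 6, and those of CHRM2, at background in every line, held 1, 1 and 2. Of 35116 RefSeq promoter windows of this length, 45% held at least 1 GC box and 9.06% held 4 or more. The E-box CANNTG, which can overlap other motifs, occurred 1 time in CHRNA3 and CHRNB2 and 2 times in CHRNB4 and CHRM3, against a share of 68.7% of all windows with at least 1. GC content was 72.7% in both CHRNA3 and CHRNB4, 60.3% in CHRNB2 and 66% in CHRM3, with a median of 58.7% over all windows. CHRM2 had 3 starts with 48.7%, 52.3% and 58.7% GC. A match describes letters only.

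The arrays differed in overall brightness, which bears on each comparison of lines. Median intensity, averaged over the arrays of a line, was 76.8 in NGP, 103 in BE(2)-C, 68.3 in KELLY and 123 in SK-N-AS, with 54.4 in SH-SY5Y, and the median of the tested genes ran from 7.54 in SH-SY5Y to 8.87 in SK-N-AS on the log2 scale. Differences are therefore given in 2 ways, for the deposited values and for arrays centred on the median of their tested genes. The ERCC controls, RNA added at lysis, varied less, with medians from 8.85 to 9.12 on the log2 scale over the arrays. Which of the 2 scales is the more apt was not tested. The lowest correlation within a line was 0.993 and the highest between lines 0.892. A probe set was said to be above background in a line when all 3 arrays exceeded a ceiling, the 95th percentile on the same array of 514 probe sets for genes expected to be silent in these cells (olfactory receptors, bitter taste receptors and keratin-associated proteins). The mean ceiling was 87.3 in NGP, 108 in BE(2)-C, 72.3 in KELLY and 127 in SK-N-AS, with 54.5 in SH-SY5Y, so the same intensity can be above background in SH-SY5Y and at background in SK-N-AS. The sympathetic lineage markers HAND2, GATA3, ISL1 and TH were above background in all 5 lines, while DBH, which makes noradrenaline, was not above background in SK-N-AS (96.0 ± 4.78, SD, n = 3). Markers of other cells with a probe set were above background in some line for 2 of 4 genes of epithelium, 1 of 3 of leukocytes, 2 of 2 of Schwann cells and 1 of 5 of skeletal muscle. KRT18 (8602 ± 508) and the leukocyte gene PTPRC (320 ± 24.6) were so in SK-N-AS alone, S100B of Schwann cells (269 ± 15.4) in BE(2)-C alone, KRT19 in BE(2)-C (358 ± 28.6) and SH-SY5Y (69.4 ± 5.26), SOX10 in NGP (92.1 ± 3.73) and SK-N-AS (138 ± 3.99), and the muscle gene DES in BE(2)-C (141 ± 15.6). The remaining listed markers of these cells with a probe set, EPCAM, CDH1, CD3E, LYZ, MYOD1, MYOG, MYH3 and CKM, were above background in 0 lines. The ratio of 3' to 5' signal of ACTB, a measure of RNA quality, was lowest in SK-N-AS too (0.71 on the log2 scale, against 0.97 to 1.23 in the other lines), while that of GAPDH was 0.19 in SK-N-AS and lowest in BE(2)-C, at 0.18. The part of these markers and of RNA quality in the results was not tested, and with RNA of whole cultures fewer cells of a type and less RNA per cell cannot be told apart.

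By their brightest probe sets, CHRNA3 and CHRNA5 were above background in all 5 lines, CHRNB2, CHRNB4 and CHRM3 in 4 lines but not in SK-N-AS, and CHRM2 in 0. Another CHRNB2 probe set was above background in SK-N-AS. Of all 18244 genes, 64.2% were above background in at least 1 line and 44.6% in all 5. On centred arrays SK-N-AS had the lowest level of all 5 genes tested by their brightest probe sets. For CHRNA5 the difference SK-N-AS minus SH-SY5Y was only -0.18 there on the log2 scale, less than 2-fold. Over all 12721 genes tested SK-N-AS was the lowest line for 32.7% on centred arrays and for 5.92% on the deposited scale. The brightest probe set stood for a gene, and testing required a mean of at least 80.6 (the median of all values) in the brightest line, which 5 of the 7 reached. A difference between a pair of lines was called by limma where it reached 1 on the log2 scale (2-fold) with an adjusted p (Benjamini-Hochberg, all tested genes) under 0.05. Of the 50 tests of a gene in a pair, 30 were called on the deposited scale and 21 on centred arrays, beside 37.7% and 20.8% of such tests over all genes. The pairs called per gene ran from 4 for CHRNA5 to 8 for CHRM3, and 57% of all genes were called in 4 or more pairs, 37% in 5 or more, 25.7% in 6 or more, 10.9% in 7 or more and 4.31% in 8 or more. As the filter looks at the brightest line, a count over genes that passed it is a description and no support.

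**Figure D1:**
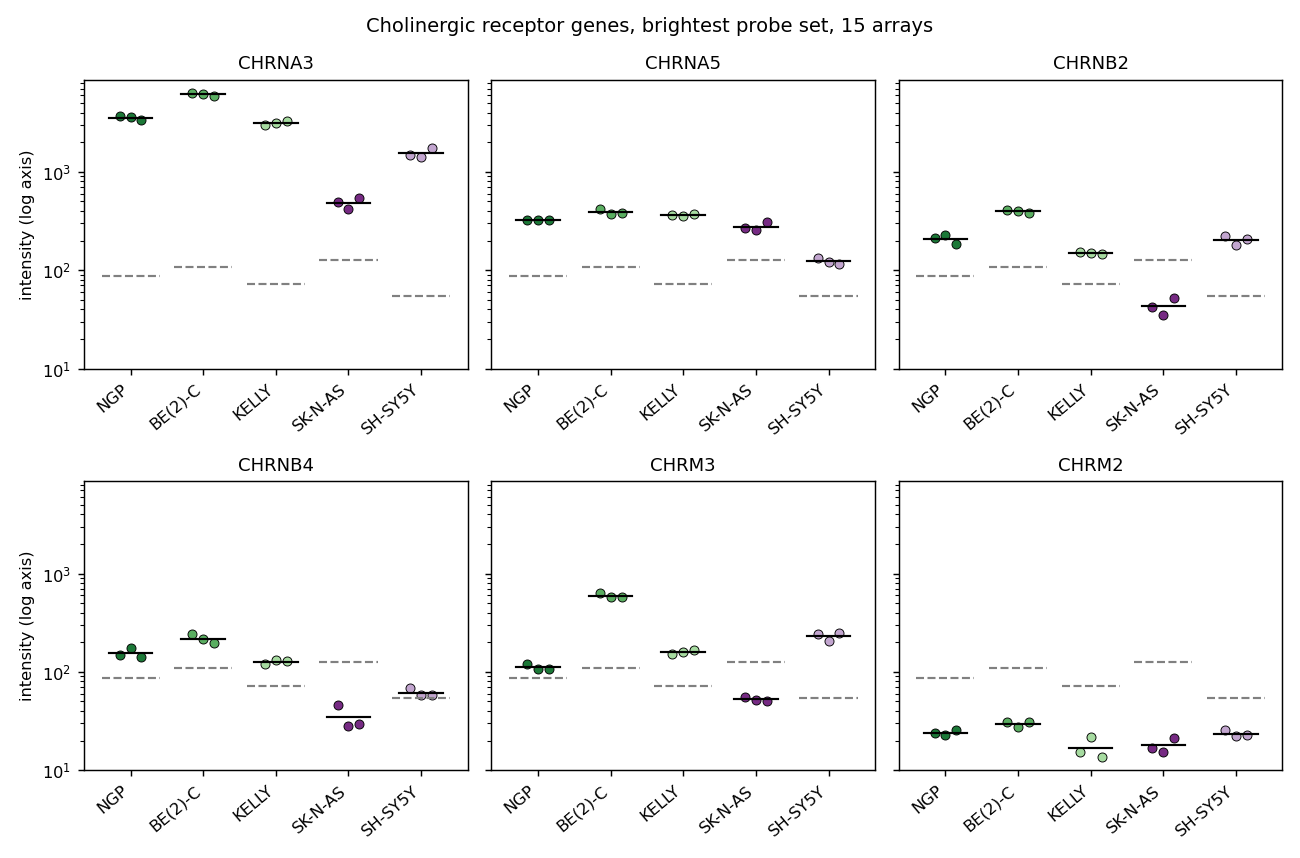
Intensity (log axis) of the brightest probe set of each cholinergic receptor gene on each of the 15 arrays, by cell line. Points are arrays, solid bars the means of 3 arrays and dashed bars the mean background ceiling of the line. CHRNA3 stood above the dashed bars in every line, CHRM2 in none, and CHRNB2, CHRNB4 and CHRM3 fell below them in SK-N-AS alone.

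CHRNA3, the ligand-binding subunit of the ganglionic channel, was above background in every line, and lowest in SK-N-AS. The 3 arrays read 3659.85, 3587 and 3385 in NGP, 6357, 6156 and 5902 in BE(2)-C, 3014, 3168 and 3295 in KELLY, 498, 422 and 541 in SK-N-AS, and 1501, 1406 and 1765 in SH-SY5Y (intensity). No array of one line overlapped those of another, with BE(2)-C on top, NGP and KELLY close together beneath it, and then SH-SY5Y and SK-N-AS. Line means were 3544 ± 142 in NGP, 6138 ± 228 in BE(2)-C, 3159 ± 141 in KELLY and 487 ± 60.4 in SK-N-AS, with 1557 ± 186 in SH-SY5Y (SD, n = 3 each). The difference BE(2)-C minus SK-N-AS was 3.66 on the log2 scale (SE 0.09, limma adjusted p = 6.95e-22), a 12.6-fold difference, and lay at the 91.2 percentile of the largest differences of all tested genes. In that pair 9.79% of all genes were called higher in BE(2)-C. NGP and KELLY differed by 0.17 (SE 0.09, adjusted p = 0.098 by limma) and BE(2)-C and NGP by less than 2-fold, so neither pair was called.

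SK-N-AS was lower in CHRNA3 than each of the other 4 lines on both scales, a rule that 2.12% of all genes met on the deposited scale and 5.56% on centred arrays. SK-N-AS minus SH-SY5Y was -1.68 (SE 0.09, limma adjusted p = 3.02e-15) on the deposited scale and -3.01 (SE 0.07, adjusted p = 3.45e-17) on centred arrays. NGP minus SK-N-AS was 2.87 and KELLY minus SK-N-AS 2.70 on the deposited scale, with 7.45% and 5.27% of all genes called in these directions. In all, 7 of 10 pairs were called on the deposited scale and 4, all with SK-N-AS, on centred arrays.

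Of the 3 other CHRNA3 probe sets, 11744551_a_at and 11763526_x_at were above background in all lines, with 829 and 1293 in NGP, 1369 and 1881 in BE(2)-C, 838 and 1062 in KELLY, 200.4 and 207 in SK-N-AS, and 305 and 427 in SH-SY5Y. Both gave BE(2)-C as the highest and SK-N-AS as the lowest line, as the brightest probe set 11759134_a_at did. Their differences BE(2)-C minus SK-N-AS were smaller, 2.77 (SE 0.09) and 3.18 (SE 0.10) on the log2 scale. SK-N-AS minus SH-SY5Y was -0.60 by 11744551_a_at, not called, and -1.04 by 11763526_x_at. The remaining probe set, 11762756_at, was above background in 0 lines (32.1 to 54.5).

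CHRNB4, the beta-4 partner of alpha-3, had the same order of lines as CHRNA3 on the deposited scale and lay near the ceilings. Its arrays read 149, 174 and 143 in NGP, 240.1, 218 and 195 in BE(2)-C, 120.2, 131 and 128 in KELLY, 45.9, 28.1 and 29.4 in SK-N-AS, and 68.4, 58.3 and 57.7 in SH-SY5Y. The lines did not overlap, the SK-N-AS arrays were all at background, and SH-SY5Y (61.5 ± 5.98, SD, n = 3) exceeded its mean ceiling of 54.5 only narrowly. BE(2)-C minus SK-N-AS was 2.65 (SE 0.14, limma adjusted p = 5.51e-15), with means of 218 ± 22.7 and 34.5 ± 9.92, which as a bound against the SK-N-AS ceiling is at least 1.70-fold. NGP against SK-N-AS gave at least 1.22-fold (155 against 34.5, adjusted p = 1.8e-13 by limma), and KELLY against SK-N-AS gave no fold, since the KELLY level lies under the SK-N-AS ceiling. NGP and KELLY differed by 0.29 (SE 0.14, adjusted p = 0.0613 by limma). In all, 6 pairs were called on the deposited scale and 4, again all with SK-N-AS, on centred arrays.

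The low value in SK-N-AS rested on 1 of the 2 CHRNB4 probe sets. The other, 11736940_at, stood at 102 ± 8.29 in NGP, 131 ± 5.91 in BE(2)-C, 92.6 ± 4.97 in KELLY and 100 ± 10.6 in SK-N-AS, with 62.9 ± 6.17 in SH-SY5Y (SD, n = 3 each), at background in SK-N-AS too. Its difference BE(2)-C minus SK-N-AS was 0.39 (SE 0.10, limma adjusted p = 0.00292), and 1 pair was called, BE(2)-C above SH-SY5Y by 1.05. The brighter of the probe sets was chosen by a small margin, and when 1 array at a time was left out it switched in 3 of 15 cases.

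CHRNA5, the accessory subunit encoded beside CHRNA3, varied least among the 5 genes and was lowest in a different line. It read 327, 322 and 321 in NGP, 417, 371 and 377 in BE(2)-C, 367, 352 and 369 in KELLY, 266, 254 and 308 in SK-N-AS, and 132, 122 and 116 in SH-SY5Y. All 3 SH-SY5Y arrays lay beneath every other array, while the other lines stood between 254 and 417. BE(2)-C and KELLY differed by 0.10 (SE 0.09, limma adjusted p = 0.272) and NGP and KELLY by -0.16 (SE 0.09, adjusted p = 0.0881), so the order of the amplified lines is not settled. BE(2)-C minus SH-SY5Y was 1.65 (SE 0.09, limma adjusted p = 3.1e-15), and SK-N-AS minus SH-SY5Y was 1.15 (SE 0.09, adjusted p = 2.52e-12), pairs in which 53.6% and 64.2% of all genes were called higher in the line named first. SH-SY5Y was lower than all 4 other lines, as it was for 3.95% of all genes. After centring, BE(2)-C minus SH-SY5Y was 0.52 (SE 0.07) and SK-N-AS minus SH-SY5Y was -0.18 (SE 0.07), with its sign turned, and neither was called.

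On centred arrays KELLY was the highest line in CHRNA5 and 3 pairs were called, KELLY above SK-N-AS by 1.51, KELLY above SH-SY5Y by 1.33 and NGP above SK-N-AS by 1.05, directions in which 15.6%, 7.13% and 15.8% of all genes were called. KELLY minus SH-SY5Y, at 1.55 on the deposited scale, was thus called on both scales (10.4% of all genes on the deposited one). The other probe set, 11735215_x_at, stood at 235 ± 42.9 in NGP, 242 ± 11.9 in BE(2)-C, 244 ± 49.2 in KELLY and 151 ± 16.4 in SK-N-AS, with 64.5 ± 18.5 in SH-SY5Y (SD, n = 3 each), with SH-SY5Y lowest again and above its ceiling on 2 of 3 arrays.

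CHRNB2, the beta-2 subunit that pairs with alpha-3 and other alpha subunits, was highest in BE(2)-C on the deposited scale. Its arrays read 213, 229.7 and 185 in NGP, 414, 399 and 380.2 in BE(2)-C, 154, 151 and 148 in KELLY, 42.1, 35.2 and 51.6 in SK-N-AS, and 225, 181 and 207 in SH-SY5Y. NGP and SH-SY5Y overlapped (difference 0.03, SE 0.11, adjusted p = 0.781 by limma), and SK-N-AS was at background. BE(2)-C minus SK-N-AS was 3.20 (SE 0.11, limma adjusted p = 1.78e-18), with means of 398 ± 16.7 and 43.0 ± 8.20, at least 3.11-fold against the ceiling. SH-SY5Y, at 204 ± 22.0, lay above SK-N-AS by at least 1.60-fold (SK-N-AS minus SH-SY5Y -2.24, SE 0.11, adjusted p = 1.31e-15 by limma). On centred arrays SH-SY5Y was the highest line, and the 4 pairs called were all with SK-N-AS.

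A different CHRNB2 probe set gave the opposite place to SK-N-AS. Probe set 11732599_at stood at 98.4 ± 8.97 in NGP, 137 ± 17.6 in BE(2)-C, 91.2 ± 2.77 in KELLY and 198 ± 19.3 in SK-N-AS, with 68.5 ± 15.6 in SH-SY5Y (SD, n = 3 each). It was above background in all 5 lines and brightest in SK-N-AS, with BE(2)-C minus SK-N-AS at -0.54 (SE 0.13, limma adjusted p = 0.00114) and SK-N-AS minus SH-SY5Y at 1.54 (SE 0.13, adjusted p = 1.1e-10). The remaining one, 11732600_at, was above background in 0 lines (37.7 to 66.1). The level of CHRNB2 in SK-N-AS is therefore unsettled, and the cause of the disagreement was not tested.

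**Figure D2:**
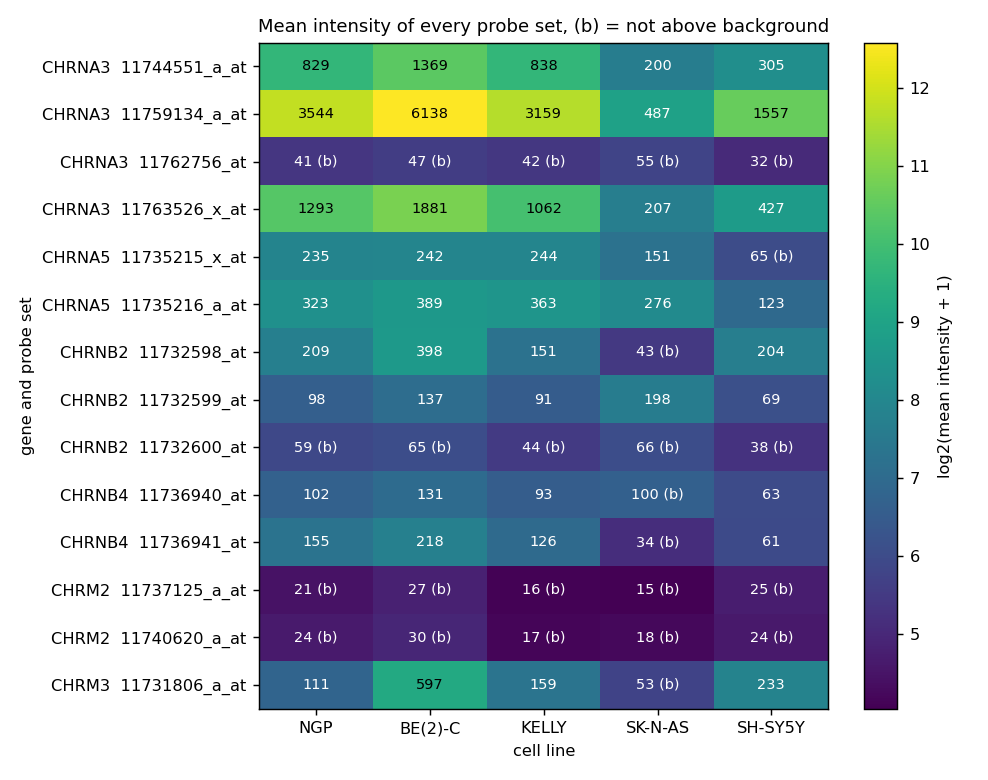
Mean intensity (number in each cell, n = 3 arrays) of all 14 probe sets that name 1 cholinergic receptor gene, by cell line, with colour giving log2(mean intensity + 1). Cells marked (b) were not above background on all 3 arrays. The 3 bright CHRNA3 probe sets were all highest in BE(2)-C and lowest in SK-N-AS, and those of CHRNB2 disagreed in SK-N-AS, with 43.0 for 11732598_at and 198 for 11732599_at.

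CHRM3, the Gq-coupled M3 receptor, had the most called pairs, 8 of 10. It was measured by 1 probe set, whose arrays read 121, 106 and 106 in NGP, 633, 582 and 576 in BE(2)-C, 153, 158 and 165 in KELLY, 55.7, 51.3 and 50.8 in SK-N-AS, and 241, 207 and 249 in SH-SY5Y. BE(2)-C stood far above the other lines, SH-SY5Y came next, and SK-N-AS was at background, with no overlap between lines. Means were 111 ± 8.60 in NGP, 597 ± 31.7 in BE(2)-C, 159 ± 6.28 in KELLY and 52.6 ± 2.65 in SK-N-AS, with 233 ± 22.3 in SH-SY5Y (SD, n = 3 each). NGP minus BE(2)-C was -2.42 (SE 0.09, limma adjusted p = 1.07e-17), 5.34-fold, in a pair where 26.3% of all genes were called lower in NGP. BE(2)-C over SK-N-AS was at least 4.66-fold (difference 3.48, SE 0.09, limma adjusted p = 3.73e-21). NGP minus SK-N-AS was called at 1.06 but gave no fold, since the NGP level lies under the SK-N-AS ceiling. The called pairs of CHRM3 numbered 7 without NGP replicate 1 and 6 with a pseudocount of 16, where CHRNA3 had 7.

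BE(2)-C was higher in CHRM3 than all 4 other lines on the deposited scale, which held for 3.46% of all genes. Centring took 2 of those pairs under the 2-fold threshold, with BE(2)-C minus SH-SY5Y at 0.23 (SE 0.07) and BE(2)-C minus KELLY at 0.99 (SE 0.07), and left the order of the lines as it was. NGP minus SH-SY5Y was -1.06 (SE 0.09) on the deposited scale and -1.58 (SE 0.07) on centred arrays, called on both (limma adjusted p = 1.6e-10 and 3.95e-12), in a direction taken by 4.17% and 8.38% of all genes. Of the 5 lines on the deposited scale, NGP came next after BE(2)-C in CHRNA3 but just above SK-N-AS in CHRM3. NGP minus KELLY was 0.17 for CHRNA3 but -0.52 for CHRM3, neither called. On centred arrays KELLY came next after BE(2)-C in CHRNA3 (NGP minus KELLY -0.13, not called).

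CHRM2, the Gi- and Go-coupled M2 receptor, was at background everywhere. Its brighter probe set read 24.1, 23.0 and 25.4 in NGP, 31.0, 27.5 and 31.0 in BE(2)-C, 15.3, 21.6 and 13.5 in KELLY, 16.9, 15.5 and 21.2 in SK-N-AS, and 25.6, 22.3 and 22.7 in SH-SY5Y. Every array lay below its ceiling, and the other probe set spanned 11.1 to 30.7. The gene did not pass the filter. In a fit without the filter, over 18244 genes, limma called 0 pairs, the largest difference being 0.82 (BE(2)-C minus KELLY, adjusted p = 0.000116), under 2-fold and between values at background.

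**Figure D3:**
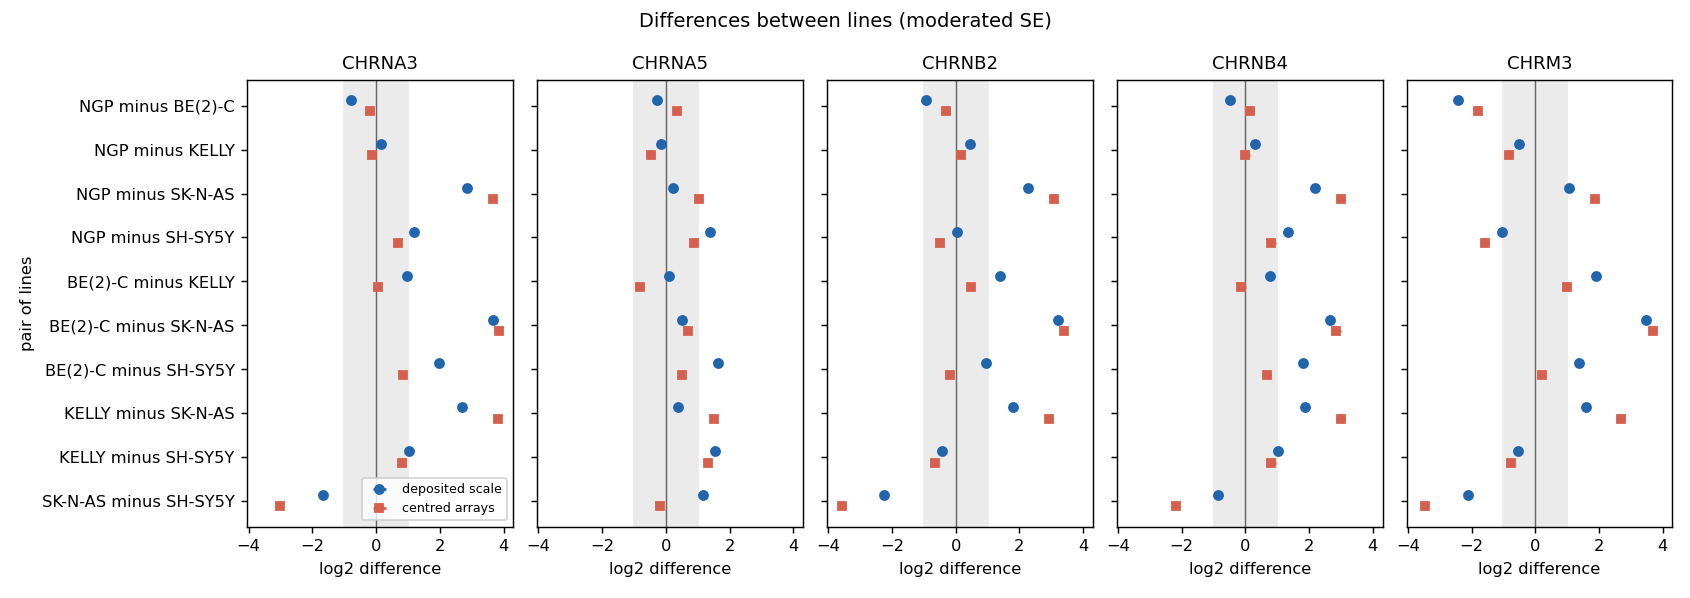
Log2 differences between lines for the 5 genes tested, for each of the 10 pairs named as the line on top minus the line taken off. Blue circles give the deposited scale and red squares centred arrays, horizontal bars the moderated SE (smaller than most symbols), and the grey band differences under 2-fold. The 3 pairs ending in "minus SK-N-AS" lay to the right of 0 in every panel on both scales. The largest difference of CHRNA5 was the smallest among the 5 genes on both scales. For KELLY minus SH-SY5Y, though, CHRNA5 lay farthest from 0 among the 5 (1.55 on the deposited scale, 1.33 on centred arrays).

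The study's title concerns MYCN, so the classes were also compared. CHRNA3 and CHRNB4 were higher in all 6 contrasts of an amplified line with another line, a rule met in that direction by 0.684% of all genes, but only just: the smallest difference was 1.03 for both genes, KELLY minus SH-SY5Y. For CHRNB4 this rests on 1 of 2 probe sets, since the other gave 0.03 for NGP minus SK-N-AS and -0.11 for KELLY minus SK-N-AS, and the KELLY level lies under the SK-N-AS ceiling. On centred arrays 3 of those 6 contrasts were called for each gene, and 0 of the receptor genes separated the classes. The mean of the amplified lines minus that of the others was 2.24 for CHRNA3, 1.81 for CHRNB4, 0.95 for CHRNA5, 1.31 for CHRNB2 and 0.98 for CHRM3 on the log2 scale. The CHRNB2 value, and its p below, rest on the brightest probe set alone. By 11732599_at every amplified line lay below SK-N-AS, with KELLY minus SK-N-AS at -1.11 and BE(2)-C minus SK-N-AS at -0.54. Each lay above SH-SY5Y by that probe set (KELLY minus SH-SY5Y 0.43). The classes were not compared by it, so the direction for CHRNB2 is unsettled. Permuting the 5 line means between the classes (exact test, two-sided) gave p = 0.1 for CHRNA3, CHRNB4 and CHRNA5, which is the lowest p possible with 10 ways to split 5 lines, p = 0.4 for CHRNB2 and p = 0.6 for CHRM3. This design could not reach a p under 0.05.

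The genes most like each receptor gene over the 15 arrays were found by Pearson's r of log2 values among 12716 other tested genes. As the arrays form 5 groups, r mostly reflects 5 line levels that share overall brightness, and it is a description. For CHRNA3 they were CYBA (r = 0.997), a subunit of NADPH oxidases, OLFM1 (0.992), a secreted olfactomedin of neurons, and RAB3C (0.99), a small GTPase of secretory vesicles. CHRNB4 was nearest to HRH3 (0.981), the histamine H3 receptor, CD163L1 (0.979) and SLC7A14 (0.978). The list for CHRNB2 was RIPPLY2 (0.99), CADM1 (0.989), a cell adhesion molecule, and ZNF711 (0.988), a zinc finger protein. CHRM3 was nearest to SLC6A2 (0.986), the noradrenaline transporter, at 268 in NGP, 2382 in BE(2)-C, 386 in KELLY and 50.5 in SK-N-AS, with 773 in SH-SY5Y, followed by STMN3 (0.984) and RADIL (0.98). For CHRNA5 they were PRPH (0.991), SNX5 (0.99) and TRERF1 (0.988), and the r of PRPH fell to 0.70 on centred arrays.

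Among other nicotinic subunits, most of which form the muscle channel or rarer neuronal ones, 1 of 10 with a probe set of their own was above background in a line. CHRNB1, the beta subunit of the muscle channel, stood at 68.4 ± 9.70 in NGP, 98.9 ± 9.95 in BE(2)-C, 106 ± 5.09 in KELLY and 191 ± 38.9 in SK-N-AS, with 131 ± 19.4 in SH-SY5Y (SD, n = 3 each) and exceeded the ceiling in KELLY, SK-N-AS and SH-SY5Y. Of 4 tested, 3 were called in at least 1 pair, beside 91.4% of all genes (54.6% on centred arrays). CHRNA1, the alpha subunit of the muscle channel, was called higher in NGP than in all 4 others (82.1 ± 6.51 against 20.1 or less), though it exceeded the NGP ceiling on 1 of 3 arrays, and CHRND was called with no line above background. Of the other muscarinic receptors, CHRM1 was above background in SH-SY5Y alone (64.0 ± 3.18, SD, n = 3), CHRM4 and CHRM5 in 0 lines, and 1 of 2 tested was called, CHRM4 between lines at background.

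Of genes that make, move and degrade acetylcholine, BCHE and PRIMA1 were high in BE(2)-C and low in SK-N-AS. Of 8 listed, 5 were tested and 5 called in a pair, 4 of them on centred arrays too, beside 91.4% and 54.6% of all genes. BCHE, or butyrylcholinesterase, stood at 183 ± 22.3 in NGP, 1231 ± 136 in BE(2)-C, 226 ± 4.77 in KELLY and 17.3 ± 1.61 in SK-N-AS, with 171 ± 27.4 in SH-SY5Y, and BE(2)-C minus SK-N-AS was 6.07 (SE 0.11, limma adjusted p = 2.91e-24), at least 9.57-fold against the ceiling. PRIMA1, which anchors acetylcholinesterase in the membrane, stood at 268 ± 3.23, 1133 ± 41.6, 252 ± 15.5, 53.2 ± 1.29 and 341 ± 31.5 in the same order of lines (SD, n = 3 each). On the deposited scale both were higher in BE(2)-C and lower in SK-N-AS than in every other line, and both were at background in SK-N-AS. These rules were met by 3.46% and 2.12% of all genes. SLC18A3, the vesicular acetylcholine transporter, was higher in BE(2)-C than in all others on that scale (332 ± 52.7 against 133 ± 19.8 or less). On centred arrays BE(2)-C was less than 2-fold above SH-SY5Y for PRIMA1 (9.65 and 9.06 on the log2 scale) and SLC18A3 (7.88 and 7.47).

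SLC44A1, a choline transporter of most cells, stood at 1388 ± 34.5 in NGP, 358 ± 19.0 in BE(2)-C, 414 ± 14.6 in KELLY and 6476 ± 347 in SK-N-AS, with 788 ± 66.4 in SH-SY5Y (SD, n = 3 each). It was higher in SK-N-AS than in all 4 others, as were 12.6% of all genes. CHAT, the enzyme that makes acetylcholine, was above background on all 3 arrays in SK-N-AS alone (148 ± 15.7, mean ceiling 127). It exceeded the ceiling on 2 arrays of BE(2)-C (128 ± 23.3) and on 1 array each of KELLY and SH-SY5Y. CHAT was called in 3 pairs on the deposited scale and 0 on centred arrays. ACHE, or acetylcholinesterase, and SLC5A7, the neuronal choline transporter, were above background in 0 lines.

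Of 13 chaperones and modulators of nicotinic receptors with a probe set, 8 were tested and 6 called in a pair, beside 91.4% of all genes. TMEM35A, or NACHO, a chaperone needed for assembly of alpha-7 and other neuronal receptors, stood at 426 ± 31.5 in NGP, 54.1 ± 7.46 in BE(2)-C, 770.1 ± 53.4 in KELLY and 51.3 ± 6.61 in SK-N-AS, with 537 ± 60.8 in SH-SY5Y, and was thus at background in the line with the most CHRNA3 and in the one with the least. KELLY minus SK-N-AS was 3.89 (SE 0.11, limma adjusted p = 1.12e-20), at least 6.002-fold against the ceiling. Higher in SK-N-AS than in all 4 others were LYPD6B (534 ± 15.7 against 35.0 ± 0.875 or less) and LYPD6 (422 ± 45.2 against 108 ± 12.4 or less), Ly6 proteins that modulate nicotinic receptors. So was agrin, AGRN, which clusters receptors at the muscle synapse (5449 ± 347 against 1001 ± 182 or less; SD, n = 3 each).

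**Figure D4:**
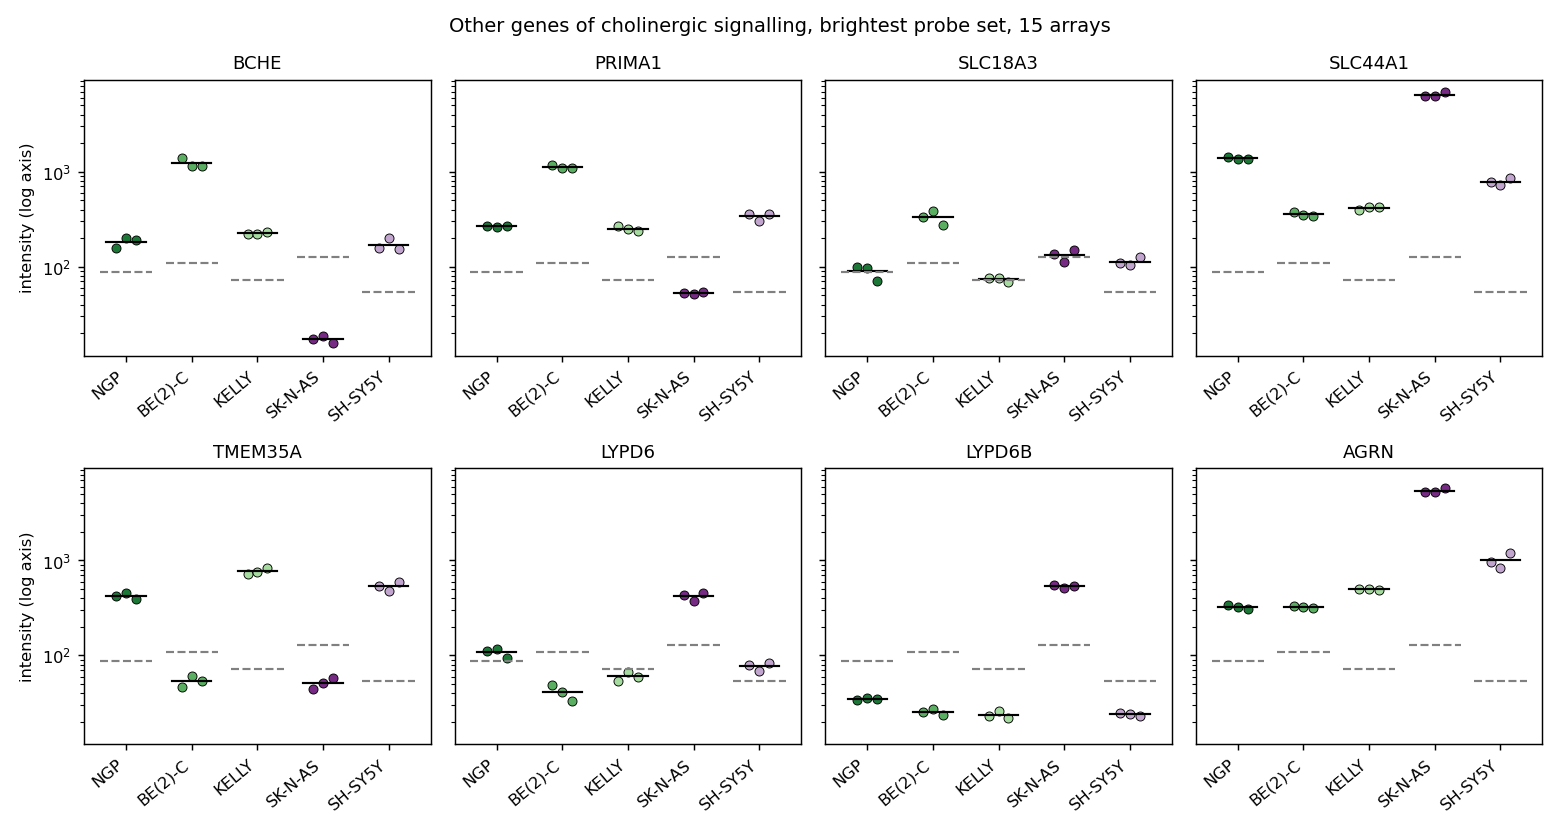
Intensity (log axis) of the brightest probe set of 8 other genes of cholinergic signalling on each of the 15 arrays, by cell line. Points are arrays, solid bars means of 3 arrays and dashed bars the mean background ceiling. BCHE, PRIMA1 and SLC18A3 peaked in BE(2)-C, SLC44A1, LYPD6, LYPD6B and AGRN in SK-N-AS, and TMEM35A in KELLY.

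Downstream of muscarinic receptors, 15 of 16 genes tested were called in a pair, beside 91.4% of all genes. Of the 19 listed genes with a probe set, tested or not, 16 were above background in at least 1 line, as were 64.2% of all genes. PLCB4, a phospholipase C beta, stood at 346 ± 105 in NGP, 1014 ± 58.7 in BE(2)-C, 574 ± 121 in KELLY and 71.7 ± 4.29 in SK-N-AS, with 265 ± 66.7 in SH-SY5Y (SD, n = 3 each). SK-N-AS was at background and lower than every other line. PLCB1, another of these enzymes, was bright in BE(2)-C (1802 ± 97.5) and SK-N-AS (1844 ± 105) and at 306 ± 12.3 or less elsewhere. GNG2, a G protein gamma subunit, was higher in SK-N-AS (6390.4 ± 196) than in all 4 others on the deposited scale. So was PRKCA, a protein kinase C (4454 ± 249), and 12.6% of all genes met this rule. After centring, PRKCA was highest in SH-SY5Y (11.66 on the log2 scale), with SK-N-AS below it (11.43). GNG2 stayed highest in SK-N-AS (11.95), though NGP (11.06) was less than 2-fold under it. GNAQ, the Gq alpha subunit, chosen after its values were seen, was lower in KELLY (338) than in all others (880.0 or more) on the deposited scale. KELLY was lowest on centred arrays too, at 8.83 on the log2 scale, but less than 2-fold under SK-N-AS (9.40).

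Of the listed genes beside the chromosome 15 cluster, 4 had a probe set and all 4 were called in a pair, 2 on centred arrays, beside 91.4% and 54.6% of all genes. CTSH, a lysosomal protease, was highest in SK-N-AS (1181 ± 73.8) and lowest in SH-SY5Y (72.2 ± 10.3) on the deposited scale. HYKK, a kinase of hydroxylysine, was above background in SK-N-AS alone (195 ± 8.92; SD, n = 3 each). On centred arrays CTSH was highest in SK-N-AS too (9.51 on the log2 scale, with 8.96 in KELLY), but lowest in BE(2)-C (6.74, with 6.83 in SH-SY5Y). PSMA4, a proteasome subunit, and MORF4L1, a chromatin protein, were called in pairs on the deposited scale and in 0 on centred arrays.

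Of 10 transcription factors listed for the cluster, 8 were tested and 8 called in a pair, beside 91.4% of all genes. On the deposited scale INSM1 and POU4F1 were called higher in all 6 contrasts of the MYCN classes, though INSM1 was at background in BE(2)-C (57.3), SK-N-AS and SH-SY5Y. PHOX2A, a homeodomain factor of autonomic neurons, stood at 1367 ± 115 in NGP, 2422 ± 125 in BE(2)-C, 1203 ± 56.3 in KELLY and 302 ± 17.9 in SK-N-AS, with 1617 ± 141 in SH-SY5Y (SD, n = 3 each), on the deposited scale highest and lowest in the same lines as CHRNA3, while on centred arrays SH-SY5Y was the highest. POU4F1, a POU factor of sensory neurons, did not follow that order, with 1269 ± 53.7 in NGP, 271 ± 5.37 in BE(2)-C, 511 ± 26.7 in KELLY and 57.6 ± 3.44 in SK-N-AS, with 34.9 ± 8.41 in SH-SY5Y. POU4F2 and INSM1 were likewise higher in NGP than in all 4 others, at 352 ± 18.1 and 2983 ± 183, as were 1.67% of all genes. In SH-SY5Y, POU4F1 and INSM1 exceeded the ceiling on 0 of 3 arrays and POU4F2 on 1 of 3. Whether any of these factors acts on the cluster in these lines was not tested.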

How the data were processed

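Total RNA, 100 ng per sample with ERCC controls added at lysis, was labelled by a 3' in vitro transcription protocol, per the labels' protocols. The values are the authors' deposited intensity values, linear, with a value for each of the probe sets. The submitters' processing notes name MAS5, with no version, and how arrays were scaled to each other is not given in the sources used here. Probe sets (49494) were named through the platform annotation: 45277 named 1 gene, 1333 several, 2682 none and 202 were controls. The highest mean over the 15 arrays chose the probe set of a gene. Values were taken as log2(intensity + 1), so a fold understates the change of dim genes. limma 3.58.1 in R 4.3.3 was fitted with 1 mean per line and an intensity-dependent prior variance to 12721 genes, and all 10 pairs were contrasted. For arrays, their number limits the precision.

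The genes and lists were chosen with earlier results of these data known. Besides the 7 receptor genes, the text names the 4 genes of each list with the largest called difference, CHAT, ACHE, the chromosome 15 neighbours and the 3 genes most like each receptor gene. GNAQ was added after its values were known. Single probe sets were tested in a second fit of the same form over all probe sets naming 1 gene, with no filter. A fold against a line at background is a bound against the higher of the ceiling and the value on each array. On simulated data for NGP minus BE(2)-C, with 200 of 12721 genes changed, 98% of the 50 genes changed by 1.25 on the log2 scale were called and 100% of those changed by 1.5, 2 or 3, with 0 unchanged genes called. In the data 26.3% of all genes were called lower in NGP in this pair. The simulation changed far fewer, so it does not show how the fit behaves under so broad a difference. Alternatives covered scaling, pseudocount, filter, probe set choice, prior variance, replicate block and leaving out arrays. The correlation of same-numbered residuals between lines had a median of -0.04 and ran from -0.23 to 0.23, so replicate numbers were not used as pairs. It cannot show whether same-numbered arrays were handled together, and no label says so.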

Additional observations from a re-analysis of the deposited data

Results flagged for a closer look

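All 4 probe sets naming CHRNA7 were left out of the comparisons because they also name CHRFAM7A, and signal in these unused probe sets lay above background. The brightest of them averaged 999 ± 103 in NGP, 584 ± 17.5 in BE(2)-C, 1496 ± 113 in KELLY and 330 ± 20.2 in SK-N-AS, with 310.0 ± 11.9 in SH-SY5Y (intensity, SD, n = 3 each). It was above background in all 5 lines, as was 1 more of the 4, at 533 ± 55.3 in KELLY and 139 ± 3.68 in SH-SY5Y. These values cannot be given to either gene, and no test was run on them.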

How the results depend on the processing

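Over 11 other settings, the pairs called for the receptor genes numbered between 21 and 30 (30 as reported), and between 28 and 31 without 1 array. With the filter at the 75th percentile CHRNB4 was not tested, and 24 pairs were called for the other genes. With equal ERCC medians 27 pairs were called, and with centred arrays 21. With the replicate block 30 pairs were called, and it changed the call in 0 of the 50 tests of a receptor gene in a pair. The largest difference of CHRNA5, BE(2)-C minus SH-SY5Y, fell under 2-fold on centred arrays (0.52) and after quantile normalization (0.53). That of CHRNB2, BE(2)-C minus SK-N-AS, was 0.88 with the mean of its probe sets, where 0 pairs were called, and -0.54 with its second brightest probe set, and that of CHRNB4 was 0.39 with its second brightest probe set. The use of the second probe set was chosen after seeing the data. The cause was not tested. The number of receptor genes separating the MYCN classes, 2 as reported, was 0 on centred arrays, 0 after quantile normalization, 0 with equal ERCC medians, and 1 each with a pseudocount of 16, with the filter at the 75th percentile, which left CHRNB4 untested, and with the mean of the probe sets. It lay between 0 and 2 without 1 array, at 0 without SH-SY5Y replicate 2 and at 1 without KELLY replicate 3 or without SH-SY5Y replicate 3. With the probe sets held as reported, the largest differences without 1 array ranged from 3.56 to 3.74 for CHRNA3, 1.60 to 1.70 for CHRNA5, 3.07 to 3.33 for CHRNB2, 2.53 to 2.87 for CHRNB4 and 3.44 to 3.52 for CHRM3. Of 30 combinations of a receptor gene with a line, by the brightest probe set, 22 were above background, and 12 with the 99th percentile as the ceiling: CHRNA3 in 5 lines, CHRNA5 in 3, CHRNB2 and CHRM3 in 2 each and CHRNB4 in 0.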
